A study of Mus musculus with 6 samples.

Results

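The genes described here encode the proteins that goblet cells of the gut secrete into mucus, or fold for secretion. Of 8 named genes, 6 (Muc2, Clca1, Zg16, Tff3, Agr2 and Spink4) had a row of their own on the array, out of 19938 genes tested, and each of the 6 had exactly 1 such row. Fcgbp had no row of its own, since its 3 rows carry several gene symbols, and no row was assigned to Klk1 in the annotation used here, so neither has a value. The study compared whole colon of 3 mutant mice, VilCre;Ihhflox/flox, with colon of 3 control mice labelled as wild type, 1 Affymetrix Mouse Gene 1.0 ST array per mouse. In the mutants the gene of Indian hedgehog, a secreted signal, was removed by Cre driven by the villin promoter, so the deletion is that of intestinal epithelial cells while whole tissue was profiled. Each mutant came from the same litter as 1 control, which gives 3 litters. The mice were young: harvest is given as postnatal day 12 in one place and as day 9 to day 12 in another. No further alleles of the controls are given in the labels.

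Goblet cells are the mucus-producing cells of the intestinal epithelium. In the colon their granules hold the gel-forming mucin Muc2, which expands after release into the layer that keeps bacteria away from the epithelium, together with smaller proteins that process, bind or accompany the gel. Mucin is a large, heavily glycosylated and disulphide-linked polymer, so its production leans on folding enzymes of the endoplasmic reticulum and on the glycosyltransferases of the Golgi. Hedgehog ligands made by the epithelium act mainly on the mesenchyme beneath it.

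Values are given as log2 RMA expression. Changes are differences of mutant minus control, each with its standard error, from a limma fit with the litter as a block. A gene is said to have risen or fallen where its Benjamini-Hochberg adjusted p over the 19938 genes was under 0.05. Levels of different genes come from different probes and were not compared. In whole tissue, fewer cells of a type and less RNA per cell cannot be told apart. As a check of the deletion, Ihh was 8.37, 8.22 and 8.22 in mutants 1 to 3, against 8.50, 8.54 and 8.68 in controls 1 to 3, and did not pass (-0.30 ± 0.09, adjusted p = 0.139). The deleted part is not stated, so the row checks the labels only in part. The hedgehog receptor and target Ptch1 fell by 1.44 ± 0.09 (adjusted p = 0.000493) and the target Gli1 by 0.78 ± 0.08 (adjusted p = 0.00355).

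The mucus protein genes went in both directions in the mutant colon. Spink4 rose 1.73-fold and Agr2 1.42-fold, while Clca1 fell 2.16-fold and Zg16 fell 1.56-fold. Muc2 stood 1.27-fold and Tff3 1.15-fold above control without passing the test. Thus 2 of 6 measured genes rose, where 1.66% of all genes did, 2 of 6 fell, where 2.11% of all genes did, and 2 did not pass. The 4 that changed compare with 3.77% of all genes changed in either direction. The members were chosen with earlier results of these data known, so the shares are a description and not a test. Each of the 6 moved the same way in 3 of 3 litters, a pattern found in 35.9% of all genes. In 5 of 6 the mutant and control arrays did not overlap, against 19.8% of all genes. In 3 of these every mutant array was above every control array (10.0% of all genes), and in 2 below (9.78% of all genes). Without litter 1, 2 of 6 passed, Spink4 and Clca1. The median change of the 6 was 0.27 and that of all genes 0.0068. The changes are drawn against the single litters in the plot of changes by gene.

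**Figure D1:**
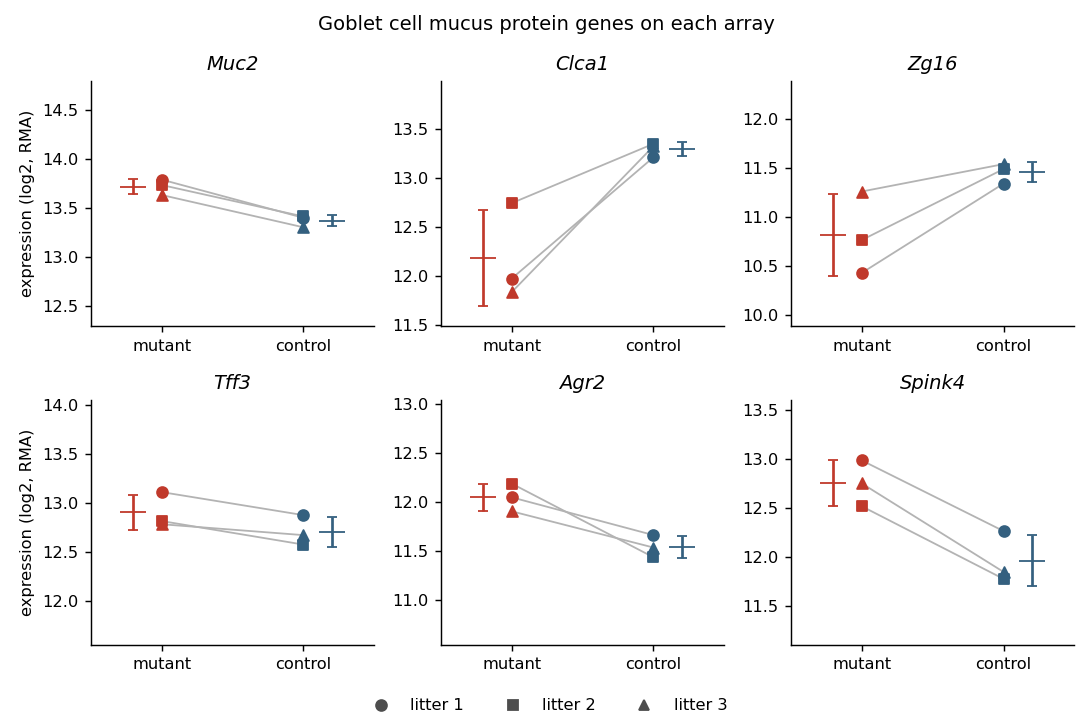
Expression of the 6 measured mucus protein genes on each array, on the log2 scale (RMA), with mutants on the left and controls on the right of each panel. Symbols mark the litter, grey lines join littermates, and the bars beside them give the mean and SD (n = 3 each); all panels span the same range. Only the Tff3 panel has mutant and control arrays that overlap, and the mutant arrays of Clca1 and Zg16 are spread more widely than the controls.

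Muc2 encodes the gel-forming mucin that builds the colonic mucus layer. It was 13.79, 13.73 and 13.63 in mutants 1 to 3, against 13.40, 13.41 and 13.30 in controls 1 to 3. Every mutant array lay above every control array, with a gap of 0.22 between the lowest mutant and the highest control. The change was 0.35 ± 0.08, with a 95% interval of 0.16 to 0.53 that is not adjusted for the number of genes. It was even across litters, at 0.39, 0.32 and 0.33. The adjusted p of 0.0583 missed the threshold. It was past it under 5 of 13 alternative settings, among them 0.0396 without the dimmest 30% of genes and 0.0180 in a robust eBayes fit with a trend. Under the other 8 it was not, among them 0.122 with quantile normalization and 0.104 with scaling to pan-epithelial markers. With litter 1, 2 or 3 left out the adjusted p was 0.0984, 0.153 and 0.228.

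Clca1 encodes a secreted metalloprotease of goblet cells that is abundant in mucus. It was 11.98, 12.75 and 11.84 in mutants 1 to 3, against 13.21, 13.35 and 13.33 in controls 1 to 3. All 3 mutants lay below all 3 controls, and mutant 2 was the least reduced. The means were 12.2 ± 0.489 in mutants and 13.3 ± 0.0734 in controls (SD, n = 3 each). The mutants were spread more widely than the controls, and that difference in spread was not tested. Clca1 fell by 1.11 ± 0.15 (adjusted p = 0.00934), the change with the greatest size among the 6. By litter it was -1.24, -0.61 and -1.49.

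Zg16 encodes a small lectin-like protein of mucus that binds the cell wall of Gram-positive bacteria. It was 10.43, 10.76 and 11.26 in mutants 1 to 3, against 11.34, 11.49 and 11.54 in controls 1 to 3. The groups did not overlap, but mutant 3 lay only 0.08 below the lowest control. Zg16 fell by 0.64 ± 0.12 (adjusted p = 0.0315), with litter values of -0.91, -0.72 and -0.28. Without litter 1 its adjusted p was 0.0911, and without the litter block it was 0.102. Litter 2, which had the smallest fall of Clca1, was not the litter with the smallest fall of Zg16.

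Tff3 encodes trefoil factor 3, a small peptide of goblet cells that helps the epithelium to close wounds. It was 13.11, 12.82 and 12.78 in mutants 1 to 3, against 12.88, 12.58 and 12.67 in controls 1 to 3. The groups overlapped, with control 1 above mutants 2 and 3. Its change of 0.20 ± 0.08 did not pass (adjusted p = 0.309; 95% interval 0.0071 to 0.38, not adjusted for the number of genes), and it did not pass under any of the 13 alternatives. Litter 1 gave the highest Tff3 value in each group, and the litter differences were 0.24, 0.24 and 0.11.

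Agr2 encodes a protein disulphide isomerase of the endoplasmic reticulum that mouse goblet cells need to make Muc2. It was 12.05, 12.19 and 11.91 in mutants 1 to 3, against 11.66, 11.44 and 11.54 in controls 1 to 3. The groups did not overlap. Agr2 rose by 0.50 ± 0.10 (adjusted p = 0.0371), by 0.39, 0.75 and 0.37 in litters 1 to 3. The rise was greatest in litter 2. The adjusted p was 0.125 without litter 2 and 0.0537 without litter 1. It was 0.0673 with quantile normalization and 0.0680 with each array scaled to pan-epithelial markers.

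Spink4 encodes a Kazal-type serine protease inhibitor of goblet cells. It was 12.98, 12.51 and 12.75 in mutants 1 to 3, against 12.26, 11.77 and 11.84 in controls 1 to 3. The groups did not overlap. Spink4 rose by 0.79 ± 0.08 (adjusted p = 0.00357), with 0.72, 0.74 and 0.90 in litters 1 to 3. Both groups had a spread between mice of similar size, 0.234 in mutants and 0.264 in controls (SD, n = 3 each), but littermates kept their distance. Without the litter block its adjusted p was 0.0256.

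**Figure D2:**
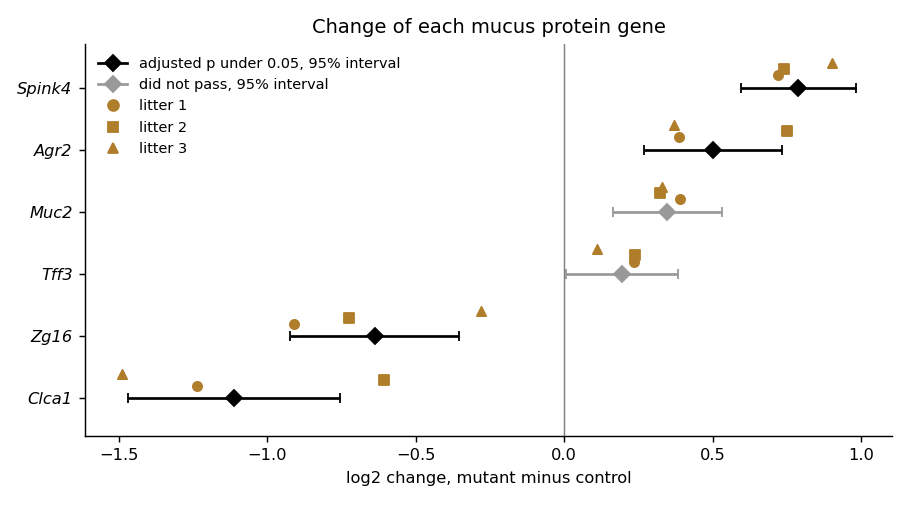
Log2 change (mutant minus control, horizontal axis) of the 6 measured mucus protein genes. Diamonds with bars are the limma estimate and its 95% interval, black where the adjusted p was under 0.05, and the small symbols above each give the difference in each litter. Spink4 and Agr2 lie to the right of 0 and Zg16 and Clca1 to the left, each in 3 of 3 litters.

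The balance between members on one array was computed from their opposite ends. Spink4 minus Clca1, the members with the highest and the lowest change, was 1.01, -0.23 and 0.91 in mutants 1 to 3, against -0.95, -1.58 and -1.48 in controls 1 to 3. The shift between the groups was 1.90 ± 0.526 (SD over litters, n = 3), with 1.96, 1.35 and 2.39 in litters 1 to 3. An exact two-sided permutation test over the arrays, which did not use the litter pairs, gave p = 0.1. That is the smallest that 3 against 3 arrays can give, and the 2 genes were chosen for their difference, so the value is a description. The root mean square distance between 2 centred profiles over the 6 arrays was 0.13 for Muc2 and Agr2 and 0.14 for Muc2 and Tff3. It was 0.78 for Muc2 and Clca1 and 0.48 for Clca1 and Zg16. This distance grows with the size of the changes, so likeness of pattern was not compared between pairs.

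The 250 bases before the annotated start of Muc2 and of Agr2 are shown because only these 2 of the 6 measured genes were matched in the promoter table. The bases were taken from RefSeq on GRCm38.p6, at chr7:141690090-141690339 and chr12:35992675-35992924, plus strand. Capitals mark matches, on either strand, to the letters TATAAA (a core promoter element), CANNTG (E-box, bound by basic helix-loop-helix factors such as Atoh1), TTTATG (bound by Cdx factors), TGTTTAC (forkhead factors), CACCC (Klf factors) or GACCACCCA (Gli factors).
Muc2: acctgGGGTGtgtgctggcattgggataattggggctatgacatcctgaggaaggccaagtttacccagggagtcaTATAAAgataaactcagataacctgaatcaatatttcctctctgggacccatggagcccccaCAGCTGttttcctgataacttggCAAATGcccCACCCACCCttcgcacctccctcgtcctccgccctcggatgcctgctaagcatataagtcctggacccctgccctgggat
Agr2: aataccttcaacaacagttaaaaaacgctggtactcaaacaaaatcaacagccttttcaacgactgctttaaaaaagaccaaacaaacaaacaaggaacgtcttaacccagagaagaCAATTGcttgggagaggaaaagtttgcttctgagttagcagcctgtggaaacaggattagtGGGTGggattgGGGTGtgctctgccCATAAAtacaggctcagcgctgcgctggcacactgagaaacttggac
In the Muc2 window 1 TATAAA, 2 E-boxes and 3 CACCC matches were found, and 2 of the CACCC matches share a base. The Agr2 window held 1 E-box, 1 TTTATG match in reverse (CATAAA) and 2 CACCC matches in reverse (GGGTG). Neither window held TGTTTAC or GACCACCCA. Among 32851 promoter windows of the same length, E-box letters stood in 66.2%, CACCC in 52%, TATAAA in 12.4%, TTTATG in 10.8%, TGTTTAC in 3.17% and GACCACCCA in 0.225%. A match in these windows is a description of letters and not a site.

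Each member was set beside its 3 measured neighbours on either side in the gene order of RefSeq. Of all genes, 3.77% passed. Of the 6 neighbours of Muc2, which include the mucin genes Muc6, Muc5ac and Muc5b, 0 passed in the limma fit, and 0 also passed around Zg16, Tff3 and Spink4. At an unadjusted p under 0.05, a cut that at least 2821 of the 19938 genes met, there were 0 around Muc2, Zg16 and Tff3. Around Spink4 there were 2. Of the 6 neighbours of Clca1, 1 passed, its relative Clca3b. Muc6 stood at 0.07 ± 0.08, Muc5ac at 0.03 ± 0.08 and Muc5b at 0.02 ± 0.10. Their control means of 6.29, 6.18 and 6.01 were below the array medians of 7.10 to 7.14. Tff2 and Tff1, the trefoil factor genes beside Tff3 that are mainly gastric, stood at -0.12 ± 0.08 and -0.03 ± 0.10. Of the 6 neighbours of Agr2, 2 passed, picked out after their values were seen: Tspan13, a tetraspanin gene, rose by 0.44 ± 0.09, and Ahr, the aryl hydrocarbon receptor gene, fell by 0.48 ± 0.09. Leaving out litter 1 gave 0.34 (adjusted p = 0.0890) for Tspan13, and leaving out litter 3 gave 0.49 (0.0804). Tspan13 also did not pass without the litter block (0.0546), with quantile normalization (0.0673) or with epithelial scaling (0.0628). For Ahr the change was -0.43 (adjusted p = 0.0740) with litter 2 left out and -0.44 (0.118) with litter 3 left out.

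Of the relatives of Clca1, 2 rose while Clca1 fell. Clca3b, which lies in the same cluster, was 11.39, 11.64 and 11.54 in mutants 1 to 3, against 10.86, 11.01 and 11.03 in controls 1 to 3. Its mutant arrays lay above its control arrays, the opposite of Clca1, and it rose by 0.56 ± 0.08 (adjusted p = 0.0113). Clca3a2 rose by 0.85 ± 0.15 (adjusted p = 0.0269, and 0.0747 without litter 1). Clca4b (0.41 ± 0.11), Clca3a1 (0.51 ± 0.15), Clca4a (0.08 ± 0.11) and Clca2 (-0.02 ± 0.11) did not pass. These genes are related in sequence, and how far the probes of one detect another was not tested. Of 19 measured paralogs of the members, 2 rose and 0 fell, with a median of 0.08. Of all genes 1.66% rose and 2.11% fell, with a median of 0.0068. The list includes 9 genes of the Klk1b group, the closest relatives of Klk1, of which 0 passed in the limma fit. Of these 9, 2 had an unadjusted p under 0.05, a cut that at least 2821 of the 19938 genes met. The greatest change among the 9 was in Klk1b22 (0.92 ± 0.24, adjusted p = 0.0924).

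The genes that regulate goblet cells or build mucus were read from lists chosen by role, with earlier results of these data known. Beside the counts of these lists, 1.66% of all genes rose and 2.11% fell, and the median of all genes was 0.0068. Of 12 transcription factor genes 3 rose, 1 fell and 8 did not pass, with a median of 0.18. Spdef, which drives goblet cell maturation, was 9.62, 9.91 and 9.54 in mutants 1 to 3, against 8.85, 8.98 and 8.83 in controls 1 to 3. It rose by 0.80 ± 0.09 (adjusted p = 0.00361), a size like that of Spink4. Foxa3 rose by 0.57 ± 0.10 and Atoh1, which commits progenitors to the secretory lineage, by 0.40 ± 0.08. For Foxa3 the adjusted p was 0.0662 without litter 1 and 0.0571 without litter 2. For Atoh1 it was 0.0785, 0.124 and 0.101 without litters 1, 2 and 3, and 0.239 without the litter block. Klf4, a factor of differentiated goblet cells and surface epithelium, fell by 0.50 ± 0.08 (adjusted p = 0.0187, and 0.0610 without litter 3).

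Genes of mucin glycosylation gave the highest count of rises among the lists. Of 18 enzymes and chaperones of O-linked glycosylation 8 rose, 0 fell and 10 did not pass, where 1.66% of all genes rose and 2.11% fell. The median was 0.42, against 0.0068 for all genes, and 17 of the 18 had a change above 0. Also 17 of 18 were above 0 with quantile normalization, median centring and scaling to pan-epithelial markers. B3gnt6, which makes the core 3 glycan of colonic mucin, was 9.74, 9.46 and 9.17 in mutants 1 to 3, against 8.05, 8.36 and 8.08 in controls 1 to 3, and rose by 1.29 ± 0.13 (adjusted p = 0.00263). B4galnt2, a glycosyltransferase that completes a terminal blood group glycan, rose by 0.77 ± 0.09, and Gcnt3, which branches the glycan core, by 0.61 ± 0.08. Muc2, whose product is the main substrate of these enzymes in goblet cells, stood at 0.35.

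Most folding genes of the endoplasmic reticulum had a change above 0, and 1 passed. Of 26 measured 1 rose, where 1.66% of all genes did, 0 fell and 25 did not pass. The median was 0.19, against 0.0068 for all genes, and 23 changes were above 0. At an unadjusted limma p under 0.05 there were 12, a cut that at least 2821 of the 19938 genes met. The 1 that rose was Pdia5, another protein disulphide isomerase gene (0.40 ± 0.08, adjusted p = 0.0373). It did not pass without litter 1, 2 or 3, with 0.205 as the highest adjusted p of these. Ern2, an epithelial stress sensor of goblet cells, stood at 0.51 ± 0.12 and missed the threshold (adjusted p = 0.0710).

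Among other secreted products of goblet cells, Retnlb had the greatest change of all the goblet cell lists. Of 8 measured 2 rose and 0 fell, with a median of 0.40. Retnlb, a bactericidal protein, was 9.75, 11.47 and 11.45 in mutants 1 to 3, against 8.57, 8.16 and 8.61 in controls 1 to 3. It rose by 2.44 ± 0.34 (adjusted p = 0.00910, and 0.169 in a robust eBayes fit with a trend), and litter 1, at 1.18, was the lowest of the litters. Reg4, a lectin, rose by 1.45 ± 0.12 (adjusted p = 0.00150). Of 8 other goblet cell markers 2 rose and 0 fell: Fxyd3, a regulator of the sodium pump, by 0.56 ± 0.08 and Rep15, a Rab15-binding protein, by 0.59 ± 0.10.

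Of the other mucins, 1 changed. Of 4 gel-forming mucins besides Muc2, 0 passed in the limma fit. Also 0 had an unadjusted p under 0.05, a cut that at least 2821 of the 19938 genes met. The changes of the 4 mucins lay between 0.02 and 0.07. Their mean level was 6.06 to 6.15 over the mutant arrays and 6.03 to 6.15 over the control arrays. These levels were below the array medians of 7.10 to 7.14, and whether the 4 genes were detected at all was not tested. Of 7 transmembrane mucins 1 rose, Muc1, by 0.54 ± 0.09 (adjusted p = 0.0196, and 0.0764 without the litter block), with a median of 0.12. Muc13 (0.10 ± 0.08) and Muc3 (0.10 ± 0.09), which line the apical surface of enterocytes, did not pass. Of 16 genes of mucus release and hydration 2 rose and 0 fell, with a median of 0.02. These were the chloride transport genes Slc12a2 (0.68 ± 0.09) and Cftr (0.53 ± 0.08).

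Among enzymes that act on secreted mucus most genes fell. Of 4 measured 0 rose, 3 fell and 1 did not pass, with a median of -0.54. Tgm3, a crosslinking transglutaminase, was 8.90, 7.82 and 9.43 in mutants 1 to 3, against 10.37, 10.62 and 10.73 in controls 1 to 3. It fell by 1.86 ± 0.25 (adjusted p = 0.00881, and 0.0992 in a robust eBayes fit with a trend). Mep1a, the alpha subunit of the protease meprin, fell by 0.59 ± 0.08 (adjusted p = 0.00876). Mep1b, the beta subunit, which releases mucus in the mouse small intestine, fell by 0.49 ± 0.09 (adjusted p = 0.0276, and 0.0907 without litter 2 and 0.0607 without litter 3). Tgm2 stood at -0.36 ± 0.08 and did not pass. Which cells of the tissue express these enzymes was not tested.

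**Figure D3:**
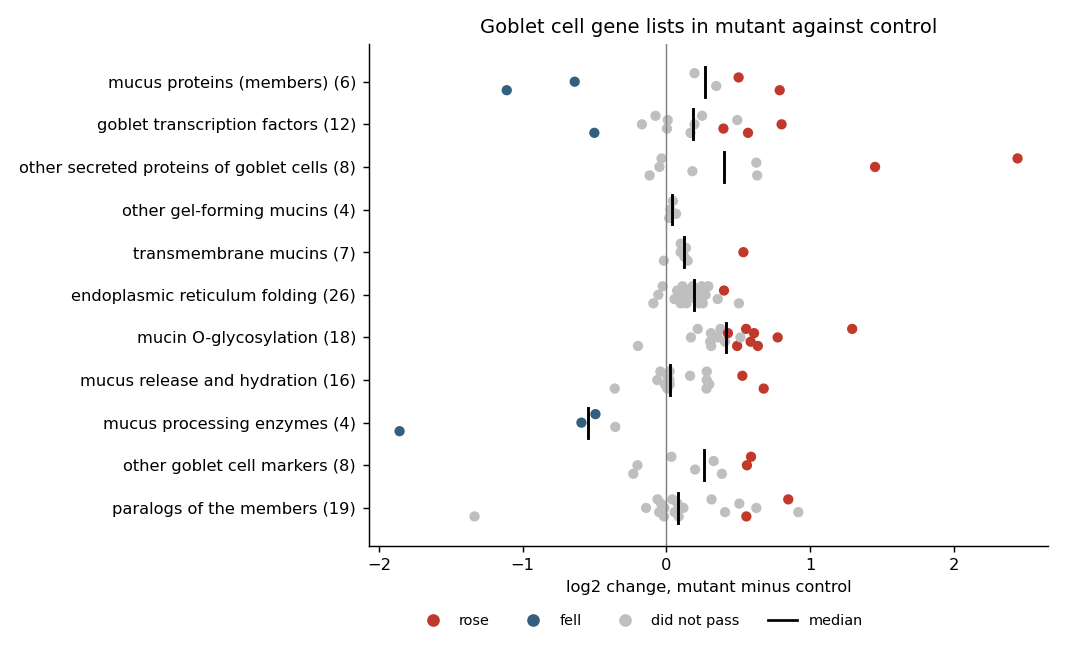
Log2 change (mutant minus control) of each measured gene in the mucus protein group and in 10 goblet cell lists, with the number of genes in brackets. Red points rose, blue points fell, grey points did not pass, and the black line is the median. The glycosylation list holds 8 red points and 0 blue ones, and the mucus processing list 3 blue points and 0 red ones.

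For each member that changed, the 3 genes with the smallest root mean square distance over the 6 centred arrays were found, as a description of likeness. For Agr2 they were Sec11c, a signal peptidase subunit gene (distance 0.033), Elapor1 (0.054) and Ttyh1 (0.056), with changes of 0.51, 0.55 and 0.56. For Spink4 they were Wfdc18, a secreted whey acidic protein-type gene (0.11), Arg2, arginase 2 (0.12), and Mir127, a microRNA gene (0.12). For Zg16 they were Fn1, fibronectin (0.077), Actg2, a smooth muscle actin gene (0.084), and Cald1, caldesmon (0.093). For Clca1 the nearest were further off: Ncam1, a cell adhesion gene (0.20), Slco2a1, a prostaglandin transporter gene (0.21), and Clu, clusterin (0.22). Clca1 also had the change of greatest size among the 6, and this distance grows with the size of the changes.

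Markers of other cells moved in the same samples. Beside the marker counts here and below, 1.66% of all genes rose and 2.11% fell. Of 10 pan-epithelial markers 1 rose, Krt18 (0.60 ± 0.08), 0 fell and 9 did not pass, with a median of -0.02. Their mean level was 11.74 to 11.80 over the mutant arrays, against 11.69 to 11.75 over the control arrays, and Epcam stood at 0.11 ± 0.08. Of the 10 changes, 4 were above 0 and 6 below. That mean includes Krt18, the greatest change of the list. With each array scaled to that mean, Spink4 stood at 0.74 ± 0.09, Clca1 at -1.16 ± 0.17 and Zg16 at -0.69 ± 0.12, and these remained past the threshold. Agr2, at 0.45 ± 0.11, no longer passed with that scaling (adjusted p = 0.0680). Muc2 (0.30 ± 0.08, adjusted p = 0.104) and Tff3 (0.15 ± 0.09, adjusted p = 0.515) also did not pass. Of 8 smooth muscle markers 5 fell (Myh11, Cnn1, Des, Actg2 and Smtn) and 0 rose, and their mean level was 11.04 to 11.45 in mutants, against 11.71 to 11.79 in controls. Without litter 1 the adjusted p of Cnn1, Des, Actg2 and Smtn was 0.0687 to 0.115, and that of Smtn was 0.0504 without litter 3. The litter values of Actg2 were -0.96, -0.65 and -0.31, beside -0.91, -0.72 and -0.28 for Zg16, and the part of muscle content in the Zg16 value was not tested.

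Epithelial cell types other than goblet cells did not move as one. Of 10 enteroendocrine markers 6 rose and 0 fell, with a median of 0.72. Of 10 colonocyte markers 1 rose, Slc9a3 (1.30 ± 0.11), and 3 fell: Car4 (-1.40 ± 0.18), Aqp8 (-1.29 ± 0.18) and Scnn1a (-0.66 ± 0.08). Transport and pH genes were found on both sides: Car1 (0.63 ± 0.14, adjusted p = 0.0570) and Slc26a3 (0.51 ± 0.13, adjusted p = 0.0755) stood above 0 and did not pass. Their mutant arrays lay above their control arrays, which was so for 10.0% of all genes. The greatest fall of Aqp8 (-1.78) was in litter 2, where Clca1 fell least.

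Markers of tissue from elsewhere were read for the whole lists. Of 9 small intestinal enterocyte, 9 stomach, 7 pancreas and 6 distal gut identity markers, 0 passed in the limma fit, with medians of 0.12, -0.05, -0.03 and -0.15. At an unadjusted limma p under 0.05 there were 3, 0, 1 and 1, a cut that at least 2821 of the 19938 genes met. The small intestinal list had mean levels of 7.91 to 8.42 in mutants, against 7.66 to 8.01 in controls, and its highest changes were those of Apoa4 (1.19 ± 0.33, adjusted p = 0.108) and Fabp6 (1.07 ± 0.35, adjusted p = 0.171). The litter values were 2.27, 0.09 and 1.21 for Apoa4 and 0.36, 2.40 and 0.45 for Fabp6, which was thus high in litter 2. Of 5 Paneth cell markers 1 rose, Mmp7 (1.32 ± 0.19), and Lyz1 stood at -0.05 ± 0.10. Of 8 crypt stem cell markers 3 rose (Lgr5, Sox9 and Smoc2) and 1 fell (Ascl2), and of 7 tuft cell markers 1 rose (Alox5ap). Without litter 3 the adjusted p was 0.0918 for Smoc2, 0.115 for Ascl2 and 0.0643 for Alox5ap. Of 8 neutrophil markers 3 rose (S100a8, S100a9 and Cxcr2), with mean levels of 6.15 to 6.58 in mutants, against 5.66 to 5.74 in controls. Of 8 T cell and type 2 cytokine markers, read because interleukin 13 induces goblet cell genes, 1 fell, Cd4 (-0.43), and 0 rose; without litter 3 the adjusted p of Cd4 was 0.245 and without litter 2 it was 0.0713. Il13 stood at -0.07. Il33 had the greatest change of the list, 0.67 ± 0.18, and did not pass (adjusted p = 0.0922). Its mutant arrays lay above its control arrays, which was so for 10.0% of all genes. Of the 8 changes, 3 were above 0 (Il33, Il4 and Il5) and 5 below. The part of these cells in the mucus gene values was not tested.

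**Figure D4:**
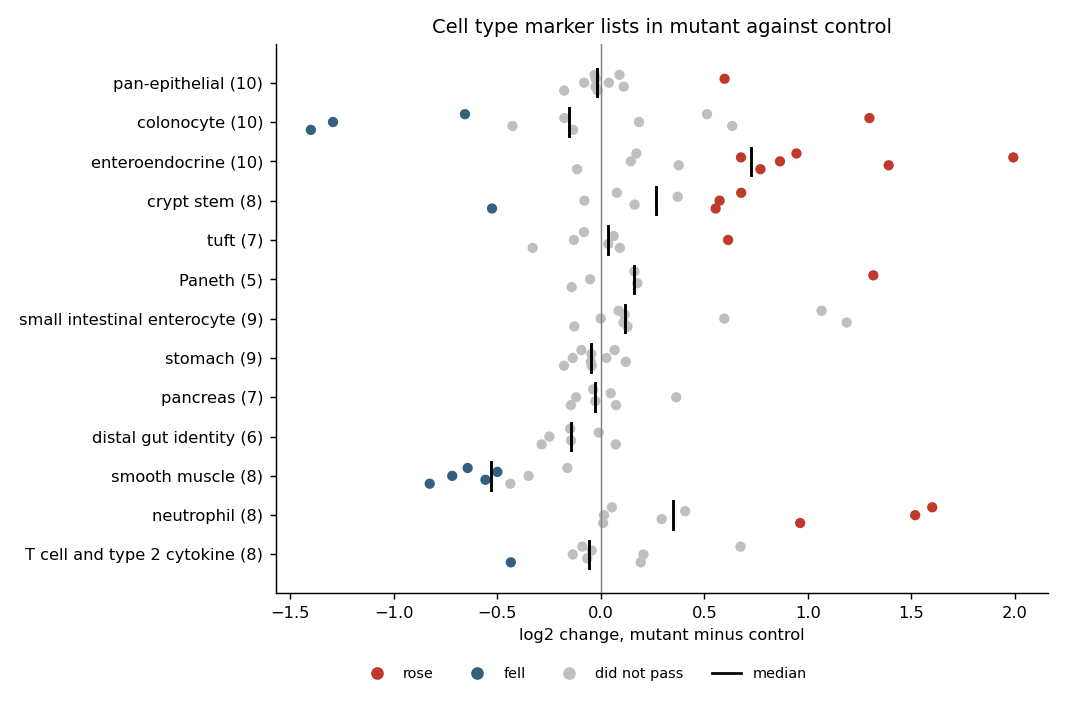
Log2 change (mutant minus control) of each measured gene in 13 lists of cell type markers, drawn as in the plot of goblet cell lists. The pan-epithelial median is -0.02, the enteroendocrine median 0.72 and the smooth muscle median -0.53.

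The calls of the members under other ways of processing the same arrays are drawn in the plot of adjusted p by setting, in which Muc2 passed under 5 of 13 alternatives and Tff3 under 0.

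**Figure D5:**
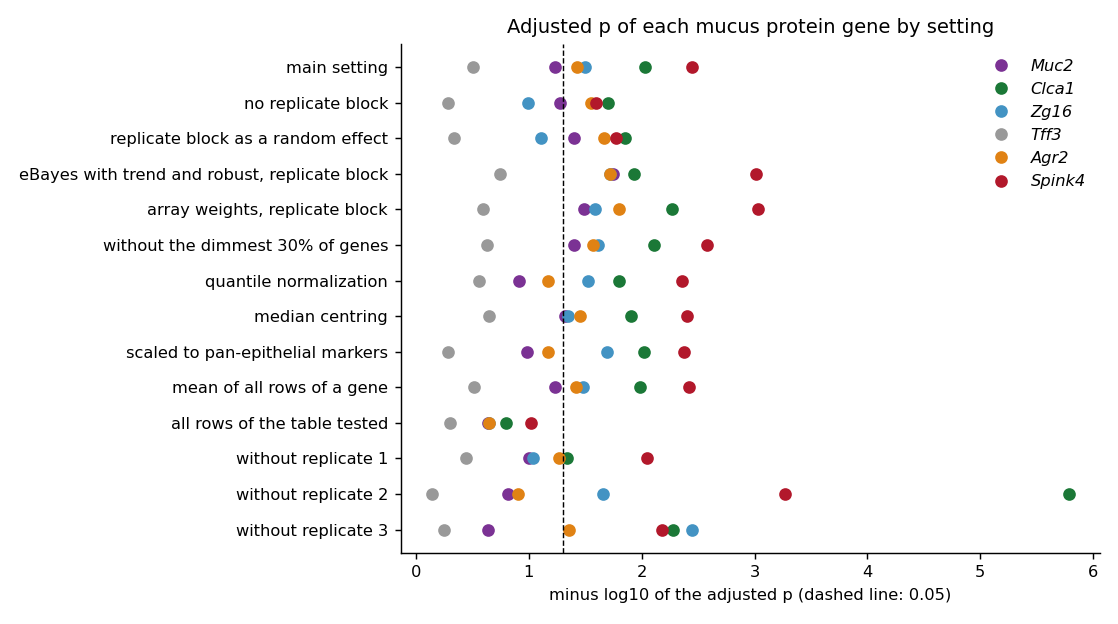
Adjusted p of the 6 mucus protein genes, as minus log10, in the main setting and under 13 alternatives; the dashed line marks 0.05 and points to its right passed. Spink4 and Clca1 are to the right in 12 of 13 alternatives, Zg16 in 9, Agr2 in 8, Muc2 in 5 and Tff3 in 0.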

How the data were processed

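The values are log2 expression deposited by the authors, made with RMA per the submitters' processing notes. For the RMA version and the probes' build, neither is given in the sources used here. The 35557 rows cover 6 arrays, with medians of 7.10 to 7.14. Array values carry no counts, and 3 arrays per group limit the precision.

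Gene symbols came from the 2016 annotation of the platform. The 21789 rows with 1 symbol entered, 1621 with several symbols and 12147 unnamed ones did not, and the row with the highest mean was kept for the 999 genes with more than 1, which left 19938 genes. The test was limma 3.58.1 under R 4.3.3 (lmFit, then eBayes without trend, two-sided), with the litter as a fixed block because the series' design text states the pairs as littermates. Deviations of littermates correlated by 0.0128, 0.0052 and 0.0613. The fit has 2 residual and 5.85 prior degrees of freedom. The script was tested on simulated data.

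Named genes were all members, Ihh, Ptch1 and Gli1, in each goblet list up to 3 per direction that passed (or the lowest p), and the 3 nearest profiles per changed member. Other genes named were chosen after their values were seen. Members and lists were chosen with earlier results of these data known. Lists have no test of their own.

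The alternatives were no replicate block, a random block, robust eBayes with a trend, array weights, no dimmest 30% of genes, quantile normalization, median centring, scaling to pan-epithelial markers, all rows of a gene averaged, all rows tested, and each litter left out.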

Additional observations from a re-analysis of the deposited data

How the results depend on the processing

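All 6 mucus protein genes kept their direction under the 13 alternatives. With all 35557 rows tested, 2 rows passed in limma, against 751 genes in the main setting and 3761 rows at an unadjusted p under 0.05. In that setting 0 members passed (5 at an unadjusted p under 0.05) and 0 of the 25 goblet list genes that changed in the main setting, with 3.01 prior degrees of freedom. With array weights 1246 genes passed. Without the replicate block 638 genes and 3 members passed, Zg16 being the one lost (adjusted p = 0.102), and 4 of the 25 goblet list genes were lost. Scaling to pan-epithelial markers gave 268 higher and 575 lower genes, against 330 higher and 421 lower in the main setting. Leaving out 1 litter gave 546 to 798 genes and 2 to 4 members. The 2 members were Clca1 (adjusted p = 0.0454) and Spink4 (0.00901), without litter 1. The shift of Spink4 relative to Clca1 was 1.65 to 2.18. Muc2 passed with a random block (0.0397), array weights (0.0325) and median centring (0.0474), and Zg16 did not with a random block (0.0771). Causes were not tested.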
